A study of Drosophila melanogaster with 2 samples.

Results

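Small nucleolar RNA (snoRNA) genes of Drosophila melanogaster and the promoters of the genes that carry them were examined for binding of Wdn, the C2H2 zinc finger protein encoded by wings down. The members were the 269 genes of biotype snoRNA on X, 2L, 2R, 3L, 3R and 4 in the dm6 annotation, of 18164 genes on those chromosomes. The symbols of 16 of the 269 (5.95%) start with scaRNA, and these are counted as snoRNA genes throughout. A same-strand gene that contains a snoRNA gene was taken as its host. A host was found for 247 of the 269 (91.8%), of which 235 had 1 host and 12 had 2, and 22 had none. The 247 lay in 95 host genes. Of these hosts, 29 encode ribosomal proteins, 55 encode other proteins, and 11 encode no protein (10 ncRNA genes and the pseudogene CR33222).

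snoRNAs guide the chemical modification of ribosomal and spliceosomal RNA. Box C/D snoRNAs direct 2'-O-methylation with the methyltransferase fibrillarin, and box H/ACA snoRNAs direct pseudouridylation with the pseudouridine synthase dyskerin. Most animal snoRNAs are cut out of the introns of a host transcript, so the host's promoter drives their synthesis. Hosts are often ribosomal protein and translation factor genes, or non-coding genes named Uhg.

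The assay was chromatin immunoprecipitation with sequencing (ChIP-seq) on whole embryos collected over the first day of development, at 0 to 24 hours, from transgenic flies that express a fusion of wdn and eGFP. Chromatin was sheared by sonication and the fusion recovered with an anti-GFP antibody. The 2 samples were biological replicates of 1 group, and no control library was analysed here. Whole embryos mix all embryonic cell types, so a peak at a host start may come from some of the cells. The authors' main list, made from both replicates, held 3254 of 132052 ranked peaks. The lists made from single replicates held 1996 peaks for replicate 1 and 1796 for replicate 2, and the conservative list 2722. Each peak's signal value is the authors' own, and its unit is not stated. It serves here to describe peaks and to rank them inside 1 list. IDR, the irreproducible discovery rate, is low where peaks rank alike between data sets. In the main list it was at most 0.01. Below, a gene is called bound if any of its annotated starts had a main-list summit no more than 500 bp away.

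A naming rule gave a guide class for 226 members. It read Psi or aca in a symbol as box H/ACA, and Me, Or-CD, CD, U3 or U14 as box C/D. The letters ACA stood in the last 10 bases of 116 of 120 box H/ACA genes (96.7%), against 6 of 106 box C/D genes (5.66%). The box D letters CTGA stood in the last 20 bases of 99 of 106 box C/D genes (93.4%), against 6 of 120 box H/ACA genes. The box C letters TGATGA stood in the first 20 bases of 70 of 106 box C/D genes (66.0%) and 0 of 120 box H/ACA genes. The other 43 were left unclassed by this rule, among them the U27, U29, U31, U76 and snR38 genes of Uhg1. Of these 43, 21 had CTGA in the last 20 bases and 15 had ACA in the last 10, so some may belong to either class. The median gene length was 140 bp for box H/ACA and 80.5 bp for box C/D. Examples of both classes, taken from the RefSeq dm6 genome 5' to 3' on the gene's strand, are shown because their own starts had a Wdn peak. The box H/ACA gene snoRNA:Psi18S-301 (chr3R:20574906-20575043, plus strand) has no host, and its capitals mark ACA. The box C/D gene snoRNA:Me18S-A1576 (chr2L:9894795-9894907, minus strand) lies in Uhg2, and its capitals mark TGATGA and CTGA.
snoRNA:Psi18S-301: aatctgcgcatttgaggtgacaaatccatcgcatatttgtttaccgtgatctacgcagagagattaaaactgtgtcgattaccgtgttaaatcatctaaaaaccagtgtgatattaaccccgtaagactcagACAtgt
snoRNA:Me18S-A1576: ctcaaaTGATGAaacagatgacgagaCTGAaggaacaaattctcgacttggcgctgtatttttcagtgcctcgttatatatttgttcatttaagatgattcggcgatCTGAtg

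Host sequences are shown for 3 kinds of start that the values below describe. The first are 101 bases centred on the summits at CG1142 (chr3R:7473909-7474009, minus strand) and Irbp (chr3R:11409892-11409992, plus strand), among the strongest host peaks. Capitals in them mark the A/T-rich words TTAAAAAA or TATATTAA on either strand.
CG1142: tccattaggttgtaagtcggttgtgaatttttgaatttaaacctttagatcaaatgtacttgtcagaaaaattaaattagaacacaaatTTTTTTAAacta
Irbp: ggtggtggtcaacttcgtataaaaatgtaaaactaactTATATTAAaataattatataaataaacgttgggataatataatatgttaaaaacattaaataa
The second are 101 bases centred on the summits at RpL10Ab (chr3L:11822709-11822809, plus strand), RpS12 (chr3L:13023264-13023364, plus strand) and RpL28 (chr3L:3222978-3223078, minus strand). Capitals mark ATCGATA, the DNA replication-related element (DRE) recognised by the factor DREF, on either strand.
RpL10Ab: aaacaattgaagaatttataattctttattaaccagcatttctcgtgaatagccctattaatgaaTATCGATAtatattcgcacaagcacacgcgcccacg
RpS12: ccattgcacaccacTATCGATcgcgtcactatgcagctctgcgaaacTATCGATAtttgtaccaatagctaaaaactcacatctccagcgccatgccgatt
RpL28: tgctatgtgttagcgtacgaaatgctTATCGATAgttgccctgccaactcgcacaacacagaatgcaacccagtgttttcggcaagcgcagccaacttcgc
The third are 51 bases around the starts of RpL23A (chr3L:1668634-1668684, minus strand), RpL22 (chrX:765110-765160, minus strand) and RpS5a (chrX:17148244-17148294, minus strand). Capitals mark TCTTTT, searched here as the core of the TCT initiator, a pyrimidine-rich start element known from ribosomal protein genes. In each of these windows the marked word begins downstream of the annotated start and does not cover it.
RpL23A: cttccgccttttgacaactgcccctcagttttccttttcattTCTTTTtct
RpL22: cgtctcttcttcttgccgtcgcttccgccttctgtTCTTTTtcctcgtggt
RpS5a: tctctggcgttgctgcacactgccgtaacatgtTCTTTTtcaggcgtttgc

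Wdn peaks lay at the starts of many host genes and at few starts of the snoRNA genes themselves. Of the 95 hosts, 45 (47.4%) were bound, against 12.4% of all genes (2255 of 18164) and 15.0% of protein-coding genes. At their own starts 15 of the 269 snoRNA genes (5.58%) were bound, against 4.11% of ncRNA genes. Counted over snoRNA genes, 121 of the 247 with a host (49.0%) lay in a bound host. In the single-replicate lists 33 hosts (34.7%) were bound in replicate 1 and 35 (36.8%) in replicate 2, against 8.07% and 8.12% of all genes in the same lists. These lists placed 80 snoRNA genes in bound hosts for replicate 1 and 79 for replicate 2. In the conservative list 42 hosts (44.2%) were bound, against 10.8% of all genes. Neighbouring genes can share a peak, and RpS6 and CR33222 did, so the 45 bound hosts carried 44 distinct strongest peaks.

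**Figure D1:**
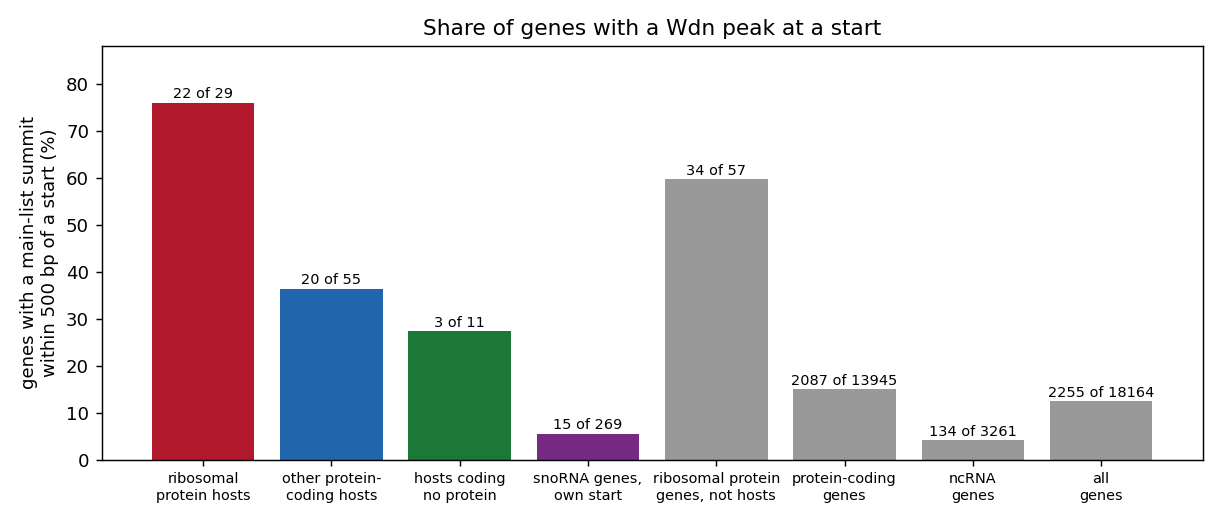
Share of genes with a main-list Wdn summit within 500 bp of an annotated start, in percent, for the 3 classes of host, the snoRNA genes at their own starts, and reference sets of genes in grey. Numbers on the bars are genes bound of genes in the set. The ribosomal protein hosts reach 75.9% and all genes 12.4%.

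Ribosomal protein hosts had the highest bound share of the 3 classes, with 22 of 29 (75.9%). Each replicate's own list held 17 of the 29. Ribosomal protein genes that carry no snoRNA gene were bound in 34 of 57 cases (59.6%), and in 27 and 25 of 57 in the lists of replicates 1 and 2. The hosts that encode other proteins were bound in 20 of 55 cases (36.4%), with 14 in the list of replicate 1 and 16 in that of replicate 2. Of the hosts that encode no protein, 3 of 11 were bound (27.3%), namely Uhg4, Uhg2 and CR33222.

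Hosts with more annotated starts had more windows in which a summit could fall. Among genes with 1 start, 18 of 49 hosts (36.7%) were bound, against 1258 of 14011 other genes (8.98%). With 2 or 3 starts the counts were 17 of 35 hosts (48.6%) and 755 of 3355 other genes (22.5%). With 4 or more starts they were 10 of 11 hosts (90.9%) and 182 of 434 other genes (41.9%). The hosts had the higher share in each of the 3 classes of start number. By chromosome, bound hosts numbered 8 of 11 on X, 5 of 16 on 2L, 11 of 23 on 2R, 10 of 23 on 3L, 11 of 21 on 3R and 0 of 1 on 4. The share of all genes bound on each chromosome was not computed, so these counts are not compared between chromosomes.

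The number of snoRNA genes in a host did not order the bound share. Hosts with 1 snoRNA gene were bound in 22 of 56 cases (39.3%), those with 2 to 4 in 17 of 24 (70.8%), and those with 5 or more in 6 of 15. Of the 5 hosts with the most snoRNA genes, 2 were bound. These were dom, which encodes a chromatin remodelling ATPase and holds 15, and RpS5a, a small ribosomal subunit gene that holds 14. Arpc2, an actin-nucleation gene that holds 17, had a best ranked peak at an IDR of 0.152. Uhg5, with 11, had one at 0.133. Uhg1, with 16, had no ranked peak of the main list within 500 bp of its start.

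By guide class, 62 of 111 hosted box H/ACA genes (55.9%) and 45 of 96 hosted box C/D genes (46.9%) lay in bound hosts. Counted over hosts, which removes the clusters within 1 host, 20 of 36 hosts of box H/ACA genes (55.6%) and 22 of 44 hosts of box C/D genes were bound. The genes left unclassed by the naming rule lay in bound hosts in 14 of 40 cases (35.0%), and 8 of their 25 hosts (32.0%) were bound. They include genes of Uhg1, which was not bound, so the shares by class depend on the rule.

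Signal values at bound hosts were like those at other bound genes in their middle range. The strongest summit of a bound host had a median signal of 89.1 (quartiles 70.8 and 135, range 42.2 to 399), against 87.5 (quartiles 63.6 and 140, highest 1483) at 2195 other bound genes. Ribosomal protein hosts had a median of 84.2 and a highest value of 221, and other protein-coding hosts a median of 104 and a highest value of 399. Ribosomal protein genes without snoRNA genes had a median of 86.5.

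The 4 strongest host peaks were at protein-coding genes outside the ribosome. CG1142, whose only member is scaRNA:MeU5-C46, had 179 in the list of replicate 1 and 222 in that of replicate 2. In the main list it had 399, with the summit 178 bp upstream of the start. Stt3A, a catalytic subunit of the oligosaccharyltransferase that glycosylates secreted proteins, had 194 in replicate 1, 158 in replicate 2 and 353 in the main list. Its summit was at -390 bp, where negative is upstream, and nearer to the diverging start of bves, at 219 bp. Msp300, a nesprin that links nuclei to actin, had 131 in replicate 1, 161 in replicate 2 and 302 in the main list, 354 bp upstream of one of its 5 starts. Irbp, the fly Ku70 of DNA end joining, had 121 in replicate 1, 108 in replicate 2 and 225 in the main list. The Irbp summit was 105 bp upstream of its start and 67 bp from the diverging start of mgr. Both replicates thus listed all 4, and their order differed between the replicates. The 101 bases around the summit held 75.2% A or T at CG1142, 68.3% at Stt3A, 59.4% at Msp300 and 80.2% at Irbp. Of the 44 host summits, CG1142 alone had TTAAAAAA in this window and Irbp alone TATATTAA (2.27% each), against 6.72% and 3.65% of the strongest summits of all bound genes.

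Among ribosomal protein hosts, RpL23A was highest, with 117 in replicate 1, 101 in replicate 2 and 221 in the main list. Its 4 snoRNA genes also lie in a shorter non-coding host with its own start. That host was not bound, with a best ranked IDR of 0.480. RpL14 had 99.1 in both replicates and 196 in the main list, with the summit 85 bp upstream of its start and 42 bp from the diverging start of Nelf-E. RpL30 had 105 in replicate 1, 57.9 in replicate 2 and 158 in the main list. These are genes of the large ribosomal subunit. Of the small subunit genes, RpS20 had 66.7 in replicate 1, 70.3 in replicate 2 and 135 in the main list, and RpS4 had 47.0, 75.0 and 122 in the same order. Main-list signals of RpL22, RpL11, RpS16, RpL10Ab, RpS12, RpL28, RpS29, RpS5a, RpL27A and RpL17 lay between 119 and 81.0. RpL11 and RpL17 were listed in replicate 1, at 77.2 and 48.5, and not in replicate 2. RpS29 and RpS5a were listed in replicate 2, at 46.1 and 41.3, and not in replicate 1.

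The non-coding hosts differed widely. Uhg4, with 7 snoRNA genes, had 80.1 in replicate 1, 102 in replicate 2 and 184 in the main list, with the summit 57 bp upstream of its start. Uhg2, with 4, was listed in replicate 1 at 42.4 and in the main list at 53.8, with the summit 64 bp inside the gene. Replicate 2 did not list it, and its strongest ranked peak there had a signal of 13.6.

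Values of the other hosts among the 30 strongest were as follows. The poly(A)-binding protein gene pAbp had 76.2 in replicate 1, 56.1 in replicate 2 and 135 in the main list, 470 bp inside from a start. The elongation factor gene eEF1alpha1 had 47.8, 64.3 and 114 in the same order. The main-list signal was 176 at the dystrophin gene Dys, 176 at CG12316, 119 at mask, 93.8 at drn, 93.2 at the Mediator gene skd and 84.7 at the zinc finger gene lola. The summit at skd was nearer to the start of its neighbour Pdss2.

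Support from single replicates was uneven. The matching shares over all bound genes were not computed, so the counts here are not read as a trait of hosts. Of the 45 bound hosts, 25 (55.6%) were in both replicates' own lists and 5 (11.1%) in neither. Among these were RpL7A, dom, Arf1 and Usp10, with main-list signals of 79.1, 52.2, 50.8 and 49.2. dom, Arf1 and Usp10 were also absent from the conservative list. The IDR of dom in the main list was 0.00965. In each replicate all 45 had at least 1 ranked peak in these windows. The strongest of these had a median signal of 46.4 (range 19.6 to 194) in replicate 1 and 50.7 (range 13.6 to 222) in replicate 2. These signals come from separate lists, so their sizes are not compared. Across the 45 hosts, which share 2 libraries, Spearman's rho between the replicates was 0.65. These hosts were chosen by a list made from both replicates, so rho is no independent measure of agreement. The strongest ranked peak at a host can also be a different peak in each replicate.

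**Figure D2:**
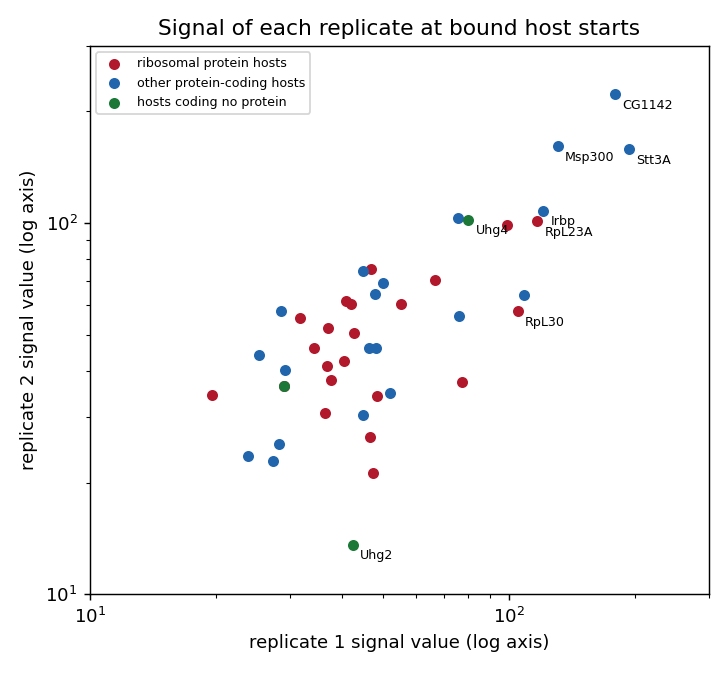
Signal of the strongest ranked peak near a host start (500 bp or less) in replicate 2 (vertical, log axis) against replicate 1 (horizontal, log axis) for the 45 bound hosts, coloured by class. CG1142, Stt3A and Msp300 stand highest in both replicates, and Uhg2 is lowest in replicate 2.

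Summits at ribosomal protein hosts sat close to the start. Their median position was -36.5 bp (quartiles -80.8 and 5.50, range -177 to 45.0), where negative is upstream, and 19 of 22 (86.4%) lay within 100 bp of a start. At other protein-coding hosts the median was -110 bp (range -447 to 470) and 6 of 20 lay within 100 bp. At the 2195 other bound genes the median was -124 bp (quartiles -212 and -51.0) and 33.2% lay within 100 bp. Ribosomal protein genes without snoRNA genes had a median of -19.5 bp. Closeness to the start was thus also seen at ribosomal protein genes that are not hosts. Over all 45 bound hosts the median was -43.0 bp, and 33 summits (73.3%) were upstream, against 83.7% at other bound genes.

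**Figure D3:**
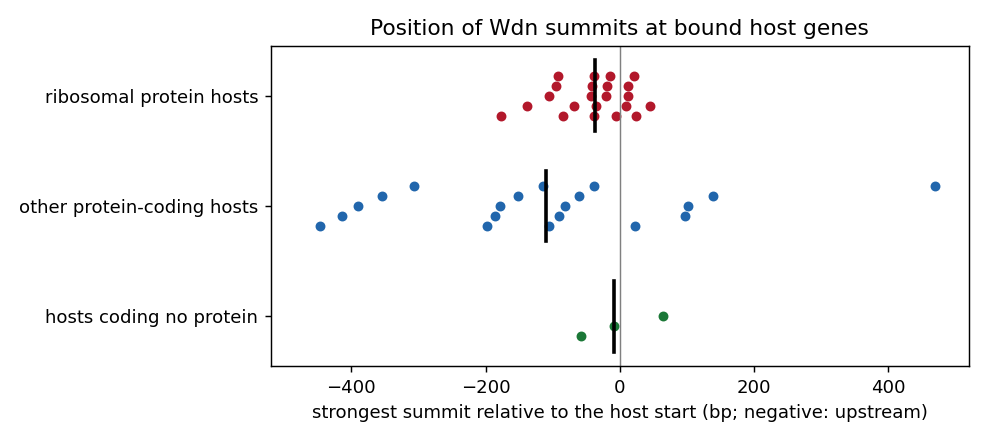
Position of the strongest main-list summit relative to the nearest start of each bound host, in bp, with negative values upstream. Points are hosts, spread vertically for display only, and black bars are medians. The 22 ribosomal protein hosts lie between -177 and 45.0 bp, and the 20 other protein-coding hosts between -447 and 470 bp.

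A host peak could often be assigned to a second gene. In 24 of the 45 bound hosts (53.3%) the start of another gene that is not a snoRNA lay within 500 bp of the summit. The host's own start was the nearest annotated start in 35 (77.8%). Neither share was computed for other bound genes, so neither is read as a trait of hosts. A gene diverging from within 1000 bp upstream was present for 30 of the 45 bound hosts (66.7%), 60 of all 95 hosts (63.2%) and 1289 of 2195 other bound genes (58.7%).

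Of the 50 hosts that were not bound, 45 had a ranked peak of the main list near a start, and several were just outside the threshold. Ranked peaks are common, and 187 of the 269 snoRNA starts (69.5%) had one. The share of all genes with a ranked peak was not computed, so the 45 are not read as a trait of hosts. RpL13A, a large subunit gene, had a ranked peak that met the IDR limit but was absent from the deposited main list. Its IDR was 0.000128 and its signal 117 at 14 bp, with 58.9 in replicate 1 and 52.7 in replicate 2. A further 9 hosts had their best ranked peak at an IDR between 0.01 and 0.05. The 4 lowest were Nop60B at 0.0102, Uhg8 at 0.0106, RpL5 at 0.0110 and RpL36A at 0.0125. The list of replicate 2 held RpL5 at 36.4 and RpL36A at 39.6, and the conservative list held RpL36A at 64.9. The best IDR was over 0.05 at 35 hosts, and 5 (Ddx56, Pi4KIIalpha, RpS3A, Uhg1 and x16) had no ranked peak. The list of replicate 1 held RpS3A, the only host on chromosome 4, at 40.8. The 7 ribosomal protein hosts that were not bound included RpL13A, RpL5, RpL36A, RpL15, RpS9 and RpS3A.

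**Figure D4:**
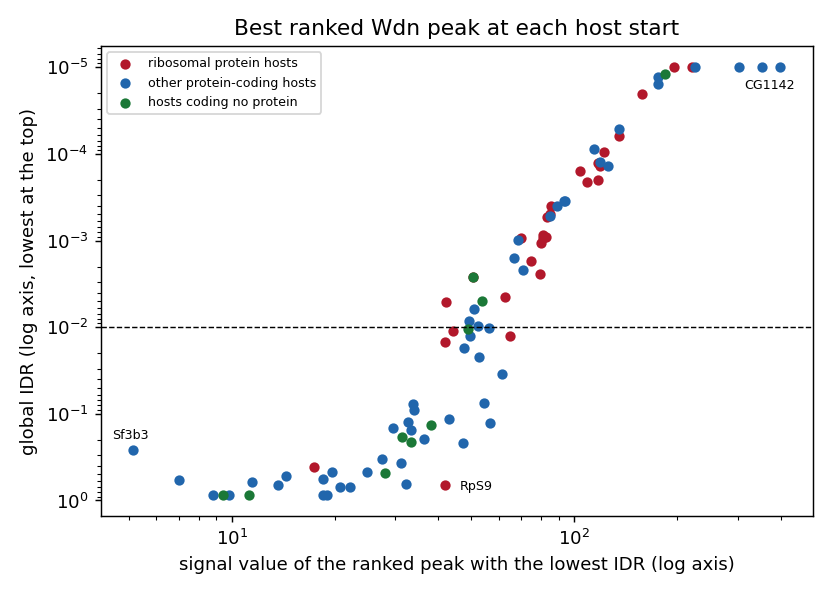
Global IDR of the ranked peak with the lowest IDR at a host start (vertical, log axis, lowest at the top) against its signal (horizontal, log axis), for the 90 hosts with such a peak. The dashed line marks 0.01. Hosts form a continuous run across the line, with the IDR of dom at 0.00965 and that of Nop60B at 0.0102.

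Most snoRNA genes bound at their own start shared the peak with a host start, and a shared peak cannot be assigned to either. Of the 15 snoRNA genes bound at their own start, 10 shared the strongest peak of a bound host. These were snoRNA:Psi28S-2949 and snoRNA:Or-aca5 in Uhg4, snoRNA:Me18S-A1576 and snoRNA:Me18S-G1620 in Uhg2, and snoRNA:Or-aca2 in RpS6 and CR33222. The others were snoRNA:Psi18S-920 in RpL10Ab, snoRNA:Me28S-A774b in RpS12, snoRNA:Or-CD11a in RpL28, snoRNA:Psi18S-1275 in RpS29 and snoRNA:Me18S-C1096 in RpL3. The summit shared by Uhg2 was nearer to snoRNA:Me18S-A1576, at 32 bp, than to the start of Uhg2, at 64 bp. In 13 of the 15 the summit was upstream of the snoRNA start. The lists of single replicates held 11 snoRNA starts (4.09%) for replicate 1 and 8 (2.97%) for replicate 2.

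A snoRNA gene close to its host start can share the host's peak, since the 500 bp windows of both then overlap, and one over 1000 bp away cannot share a peak of that start. Within 500 bp downstream of the nearest host start, 9 of 33 snoRNA genes (27.3%) were bound at their own start. From there to 1000 bp the count was 1 of 51 (1.96%), and beyond 1000 bp 3 of 163 (1.84%). The median distance from host start to snoRNA start was 1465 bp (quartiles 778 and 2764). The nearest main-list summit was at a median of 1414 bp from snoRNA genes in bound hosts, which by definition have a summit at a start. It was at 10642 bp from those in hosts that were not bound, which by definition have none there, and at 17626 bp from those with no host.

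**Figure D5:**
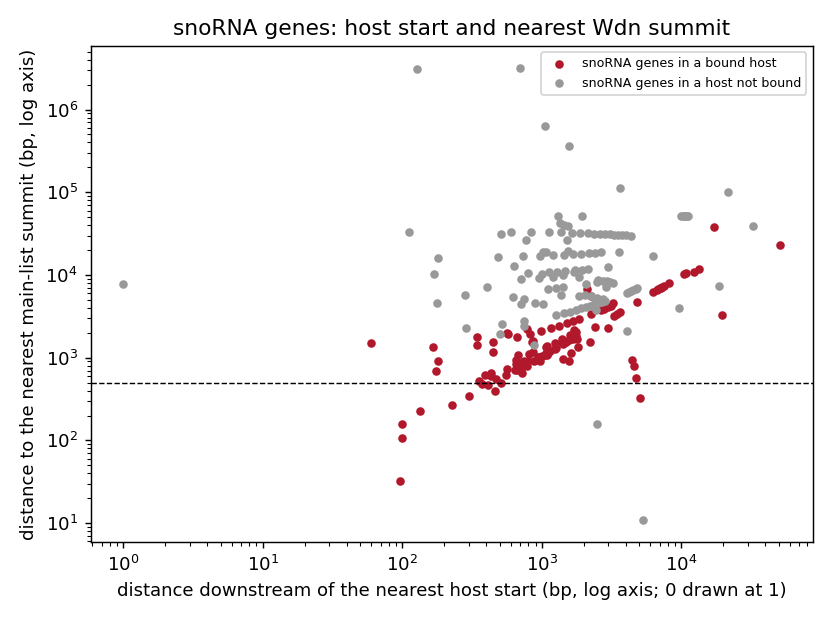
Distance from each snoRNA start to the nearest main-list summit (vertical, log axis) against its distance downstream of the nearest host start (horizontal, log axis, 0 drawn at 1) for the 247 snoRNA genes with a host. The dashed line marks 500 bp. snoRNA genes in bound hosts form a band in which both distances increase together, and most of the others lie above it, as the definition of a bound host implies.

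At 3 snoRNA genes with a host, the peak lay outside the windows of the host starts. The summit was 11 bp inside snoRNA:Me18S-C1968, in the secreted-protein gene Swim, with a signal of 29.5. It was 159 bp upstream of scaRNA:PsiU1-6, in dmt, with 41.0. At snoRNA:lola-a, in lola, it was 325 bp downstream of the start and past the end of that gene, with 45.1. None of these 3 was in the list of either replicate or in the conservative list. The whole main list had a median signal of 76.6.

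Of the 22 snoRNA genes without a host, 2 (9.09%) were bound. snoRNA:Or-ACA6 had 71.7 in replicate 1, 65.0 in replicate 2 and 139 in the main list, with the summit 422 bp upstream. snoRNA:Psi18S-301, printed above, had 52.1 in replicate 1 and 82.3 in the main list, with the summit 63 bp upstream, and was not in the list of replicate 2, where its strongest ranked peak had 22.9. Another snoRNA gene without a host had a ranked peak that met the IDR limit, at 0.000905, with a signal of 73.1 at -56 bp, but it was absent from the main list. The 3 genes for U3, a box C/D RNA of ribosomal RNA processing, had no host and were not bound, and their lowest ranked IDR was 0.0172.

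The genes of the snoRNA-protein particles were bound in 5 of 14 cases, against 12.4% of all genes and 15.0% of protein-coding genes. In the box C/D core, fibrillarin (Fib), itself a host, had 46.4 in replicate 1, 46.0 in replicate 2 and 89.1 in the main list. The Fib summit was 115 bp upstream and nearer to the diverging start of CG3085, at 17 bp. The box C/D core gene hoip had 37.3, 41.7 and 76.6 in the same order, and its summit lay at -475 bp and nearer to Pka-C1. Nop56 and nop5, the 2 others of that core, had best ranked IDR values of 0.0370 and 0.0908. In the box H/ACA core, NHP2 had 72.2 in replicate 2 and 121 in the main list and was not in the list of replicate 1. The dyskerin gene Nop60B, a host of 7 snoRNA genes, was just over the IDR limit, and Gar1 and Nop10 were at 0.345 and 0.862.

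Among 6 assembly and Cajal body genes, Nopp140 (49.0 in replicate 1, 38.5 in replicate 2, 90.0 in the main list) and the AAA+ ATPase gene rept (53.1 in the main list, 38.6 in replicate 2) were bound. The partner of rept, pont, had a ranked peak 142 bp upstream that was absent from the main list, although its IDR was 0.0000100 and its signal 210. coil had no ranked peak near its start. Nufip and WDR79 had best IDR values of 0.488 and 0.454.

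Exact words were searched from 250 bp upstream to 50 bp downstream of every annotated start, on both strands, and genes with more starts had more windows. DRE, ATCGATA, stood in 17 of 45 bound hosts (37.8%), 19 of 50 hosts not bound (38.0%), 26.7% of all bound genes and 16.9% of all genes, snoRNA genes left out. By class, DRE stood in 8 of 29 ribosomal protein hosts (27.6%) and 25 of 55 other protein-coding hosts (45.5%). Among ribosomal protein genes without snoRNA genes, 24 of 57 (42.1%) had it. GAGAG stood in 51.1% of bound hosts, 32.0% of hosts not bound, 44.7% of all bound genes and 34.9% of all genes. The E-box CACGTG stood in 15.6% of bound hosts, 18.0% of hosts not bound, 7.68% of all bound genes and 5.05% of all genes. The word CACAGTG stood in 4 of 45 bound hosts, 6 of 50 hosts not bound, 11.3% of all bound genes and 5.02% of all genes. The A/T-rich TTAAAAAA stood in 10 of 45 bound hosts, 7 of 50 hosts not bound, 19.2% of all bound genes and 13.3% of all genes. TATATTAA stood in 4 of 45 bound hosts, 3 of 50 hosts not bound, 10.2% of all bound genes and 5.77% of all genes. TCTTTT, searched on the gene's strand within 20 bp of a start, stood in 14 of 29 ribosomal protein hosts (48.3%), 33 of 57 ribosomal protein genes without snoRNA genes (57.9%) and 2.47% of all genes. It stood in 11 of 45 bound hosts, 11 of 50 hosts not bound and 4.51% of all bound genes. Of the non-coding hosts, Uhg1, Uhg5 and CR33222 held it. A match is a description of letters and not a site of binding.

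Base composition is given for the bases within 50 bp of the summit. In these windows the median A/T content was 52.5% at ribosomal protein hosts and 63.4% at the other bound hosts, against 65.3% at the 1562 distinct strongest summits of all bound genes. DRE stood in this window at 5 of 22 bound ribosomal protein hosts (22.7%), namely RpL10Ab, RpS12, RpL28, RpS29 and RpS7. It stood at 1 of 22 summits of other bound hosts (4.55%) and at 82 of the 1562 summits (5.25%). In the wider windows around starts, ribosomal protein hosts had a lower DRE share than other protein-coding hosts. Summits of ribosomal protein genes without snoRNA genes were not counted separately. The printed windows of RpL10Ab, RpS12 and RpL28 show DRE, and that of RpS12 holds it at 2 places. Genes that share a peak share its sequence, so these counts are over peaks.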

How the data were processed

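Whole-embryo ChIP-seq of a wdn-eGFP fusion gave peak lists on dm6, per the file headers. The aligner, peak caller and versions are not given in the sources used here, nor is the handling of reads that map to several copies of a snoRNA gene. A possible control library was not analysed here, and sequencing depth is unknown. In the authors' deposited lists each peak has a signal value, an IDR score capped at 1000 and, in ranked lists, a −log10 IDR with a ceiling of 5. Only signal and −log10 IDR were used, and signal sizes were not compared between lists, since signals of different lists are not on a shared scale.

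The non-conservative list from both replicates was the main list. Summits were matched to annotated starts of Ensembl release 115, whose chromosomes hold every peak. All shares are over all genes of the 6 chromosomes, with no test, since there is 1 group. Members, host classes, gene lists and words were chosen with earlier results of these data known. Counting error is not given for shares, which are complete counts of the annotation. Guide classes came from symbols, hosts from same-strand containment, and sequences from the RefSeq genome of the same assembly (Release 6 plus ISO1 MT). The genes named are the 30 strongest bound hosts, the 5 unbound hosts with the lowest candidate IDR, the 5 hosts with most snoRNA genes, the snoRNA genes bound at their own start, and the snoRNP genes. A few hosts are counted but not reported here by name. Others named, such as members of small counts and neighbours, were chosen after their values were seen. The assignment of summits to starts was tested on simulated peaks. Python 3.11.15, numpy 2.4.6, scipy 1.17.1 and matplotlib 3.10.9 were used.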

Additional observations from a re-analysis of the deposited data

How the results depend on the processing

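The number of hosts with a peak stayed within 1.5 times the 45 under all 11 alternatives, from 32 under the stricter IDR limit of 0.001 to 47 with a 1000 bp window, and its share was above that of all genes in each of the 8 settings where the latter was computed. The number of snoRNA genes bound at their own start, 15, depended more on the settings. It was 7 under the stricter IDR limit, 6 with a 200 bp window, 45 with a 1000 bp window and 6 where a peak was given only to its nearest start. It was 8 to 11 when 1 replicate was left out, which uses the other replicate's own list. A wider or narrower window holds more or fewer summits by construction. The 121 snoRNA genes in bound hosts became 80 under the stricter IDR limit and 79 to 80 when 1 replicate was left out. Where each snoRNA gene was given only its shortest host, 116 lay in bound hosts and 43 hosts were bound. The cause of the other changes was not tested. The median signal at bound hosts was 89.1 in the main list and 48.5 to 58.1 in the lists of single replicates, which have their own signal scale. No paired analysis was possible because there was 1 group and no test.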

Other observations

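Hosts also held main-list peaks away from their starts. There were 21 such peaks in 11 of the 95 hosts, among them those near snoRNA starts in lola, dmt and Swim. The share of all genes with such peaks was not computed, so the count is not read as a trait of hosts. Longer genes have more room for them, and Dys spans 136204 bp and Msp300 106126 bp. The strongest of the 21 peaks had signals of 321 in Dys, 282 in the adducin gene hts and 222 in Msp300. The chromatin gene tou held 5, and kis, which encodes a chromatin remodelling ATPase, held 4. hts and kis were not bound at a start, with best ranked IDR values there of 0.0742 and 0.0760.

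The snoRNA genes farthest from any main-list summit were the 2 in RpL15, at 3137991 and 3138562 bp. snoRNA:Psi28S-2996 in RpL5 was 640817 bp from one, and snoRNA:CD-24 in RpS3A 359159 bp.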
